A study of Mus musculus with 14 samples.

Results

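The genes described here make cholesterol or answer to SREBP2, the transcription factor that turns cholesterol synthesis on. They were chosen as a list of 28 gene symbols, and every probe of those symbols on the array was looked up and kept if it was detected, at a detection p-value under 0.05, on at least 7 of the 14 arrays. Of the 28 genes, 22 were measured and tested, among 8829 features tested in all. Mvk, Acat2, Fdft1, Soat2 and Npc1 have no named probe in the annotation used here and were not analysed, and the 2 probes of Ggps1 were detected on 0 arrays.

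The study fed male C57Bl/6J mice isocaloric diets that held either palatinose or sucrose, and each liver was hybridised to its own Illumina MouseRef-8 v2 beadchip array. Palatinose, or isomaltulose, is an isomer of sucrose that the gut splits more slowly into the same glucose and fructose. The palatinose group has 7 livers and the sucrose group has 7, called biological replicates in the labels. The titles give 22 weeks on the diet for both groups and the age label gives 18 weeks, so the age at sampling is uncertain. Nothing in the labels describes a group without either sugar, so each diet can only be read against the other. Arrays are named by diet and by the code and number in their column name, such as PAL_430_01, and the sources read here do not say what the codes stand for.

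Cells build cholesterol from acetyl-CoA through mevalonate, isoprenoid diphosphates, squalene and lanosterol, and the liver is a main site of that synthesis. When sterols are scarce in the endoplasmic reticulum, Scap escorts SREBP2 to the Golgi, where proteases release the part that enters the nucleus and binds sterol regulatory elements, usually beside sites for NF-Y or Sp1. When sterols are plentiful, the Insig proteins hold Scap back, and transcription of the whole pathway falls together. The mature, nuclear form of SREBP2 sets this output, and an array measures the transcripts only.

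The promoters of the listed genes were read from RefSeq on build GRCm38.p6, as windows of 300 bases that run from 250 before to 50 after each annotated start. Of the 22 measured genes, 18 have such an entry. The CCAAT letters that NF-Y binds were found on either strand in 17 of these 18 genes (94.4%), in all but Scap. They were found in 41.1% of all 27025 genes with an entry and in 43.6% of the genes tested on these arrays. In the 100 bases nearest the start, CCAAT was in 11 of 18 (61.1%), against 17.3% of the genes tested. The Sp1 letters GGGCGG were found in 16 of 18 genes (88.9%), against 38.2% of all genes and 67.2% of the genes tested. In the nearest 100 bases the order was the other way, with GGGCGG in 7 of 18 (38.9%), against 45.6% of the genes tested. The E-box CACGTG was found in 6 of 18 (33.3%), against 8.09% of all genes and 12.3% of the genes tested, and in the nearest 100 bases in 1 of 18 (5.56%), against 5.45% of the genes tested. The sterol regulatory element, searched as TCACNCCAC, was found in 1 of 18, Hmgcs1, at position -137 from the start, and in 1.44% of all genes. Each motif was searched by itself on both strands, so matches of different motifs may overlap. A match is a string of letters and not a measured binding site, and its absence says only that the letters are not in this window.

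Of the windows, 5 are shown, because Hmgcs1 is the gene against which the others were correlated and Mvd, Lss, Cyp51 and Hsd17b7 were among the synthesis genes that varied most closely together across the livers. Capitals mark CCAAT or its complement ATTGG, and in Hmgcs1 also the sterol regulatory element. Each is written 5′ to 3′ along the gene.
Hmgcs1 (chr13:119690101-119690400, plus strand): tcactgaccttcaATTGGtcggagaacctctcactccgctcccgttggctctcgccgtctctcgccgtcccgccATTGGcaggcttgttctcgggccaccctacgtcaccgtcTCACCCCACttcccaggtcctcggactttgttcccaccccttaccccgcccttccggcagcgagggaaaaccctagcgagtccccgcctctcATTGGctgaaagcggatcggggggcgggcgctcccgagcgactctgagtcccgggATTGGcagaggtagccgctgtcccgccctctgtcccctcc
Mvd (chr8:122443373-122443672, minus strand): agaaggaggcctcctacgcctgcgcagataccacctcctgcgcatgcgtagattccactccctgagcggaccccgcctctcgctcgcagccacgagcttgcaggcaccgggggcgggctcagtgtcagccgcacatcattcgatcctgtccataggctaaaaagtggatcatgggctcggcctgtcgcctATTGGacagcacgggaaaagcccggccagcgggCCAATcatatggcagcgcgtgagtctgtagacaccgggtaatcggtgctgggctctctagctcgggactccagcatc
Lss (chr10:76531355-76531654, plus strand): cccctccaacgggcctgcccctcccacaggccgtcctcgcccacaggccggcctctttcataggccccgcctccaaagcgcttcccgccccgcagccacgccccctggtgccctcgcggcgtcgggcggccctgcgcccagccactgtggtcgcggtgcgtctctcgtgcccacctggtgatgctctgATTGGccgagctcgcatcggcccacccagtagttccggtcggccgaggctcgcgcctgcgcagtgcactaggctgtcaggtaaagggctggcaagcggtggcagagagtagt
Cyp51 (chr5:4104648-4104947, minus strand): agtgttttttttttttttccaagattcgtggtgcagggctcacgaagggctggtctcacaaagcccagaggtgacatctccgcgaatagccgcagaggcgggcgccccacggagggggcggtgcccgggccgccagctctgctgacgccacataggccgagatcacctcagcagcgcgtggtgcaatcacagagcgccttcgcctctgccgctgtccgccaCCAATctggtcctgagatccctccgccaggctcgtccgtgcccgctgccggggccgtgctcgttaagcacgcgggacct
Hsd17b7 (chr1:169969156-169969455, minus strand): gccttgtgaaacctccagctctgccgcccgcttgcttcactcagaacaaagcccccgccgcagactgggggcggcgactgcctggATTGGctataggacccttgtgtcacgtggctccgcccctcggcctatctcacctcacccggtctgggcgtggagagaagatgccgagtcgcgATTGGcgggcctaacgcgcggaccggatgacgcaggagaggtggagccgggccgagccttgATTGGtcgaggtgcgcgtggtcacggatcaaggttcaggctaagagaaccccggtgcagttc
All 5 hold at least 1 CCAAT match, and Hmgcs1 holds 4 of them.

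Array quality and tissue content bear on all values below. Mean signal was 202 to 209.9 on the palatinose arrays and 190.2 to 257 on the sucrose arrays, and the arrays detected 44.6% to 48.6% of the probes, both highest on SUC_424_02. Markers of hepatocytes were present on every array, 7 or 8 of the 10 on the platform. Skeletal muscle markers were detected on PAL_407_04 (9 of 10), PAL_417_03 (8), PAL_429_03 (10) and SUC_415_02 (9), and on 0 of the 10 for every other array. Their summed signal ran from 5 to 6722 in the palatinose group and from -6 to 3886 in the sucrose group. Pancreatic acinar markers were detected on SUC_415_02 (11 of 11) and SUC_421_03 (6 of 11), with 2 of 11 on PAL_417_03 and 1 of 11 on every other array, and with summed signals of 198 to 344 in the palatinose group and 218 to 5005 in the sucrose group. Values without these 5 arrays are given with the main results, and they leave 4 palatinose and 5 sucrose livers. In tissue RNA, fewer cells of a type and less RNA per cell cannot be told apart.

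No cholesterol synthesis or SREBP2 target gene passed the test between livers of palatinose-fed and sucrose-fed mice. Among the 22 measured genes, palatinose gave the higher mean in 16 and the lower mean in 6, and 0 had an adjusted p under 0.05 with limma and the Benjamini-Hochberg method over all features. Over the 8829 features, 0 passed as well (0%), and 54.8% were higher with palatinose. At an unadjusted p under 0.05 there were 2 of the 22, Srebf2 and Pcyt2, and 627 of the 8829 features (7.1%). Both were higher with palatinose, as were 3.75% of all features at that threshold, while 0 of the 22 and 3.35% of all features were lower. The median difference, as log2 of palatinose minus sucrose, was 0.07 over the 22 genes and 0.01 over all features tested. Single differences ran from -0.13 to 0.34, or fold changes of 0.914 to 1.27. The diets failed to overlap in 0 of the 22 genes, against 0.125% of all features. The split of 16 against 6 depended on a few livers: without the 5 arrays with muscle or pancreatic markers it was 10 higher and 12 lower, and without PAL_430_01 and PAL_430_04 all 22 were higher, with 0 passing either way. Of all features 53.6% were higher with palatinose without the first set of arrays and 53.8% without the second. The second set was chosen after it had been seen to be low in these genes, and leaving it out raises most of their palatinose means. It was not chosen by the values of all features, so their share is not a like comparison.

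The 95% intervals set how large a difference these arrays could have missed. They lay within a 1.5-fold change in either direction for 15 of the 22 genes and within a 2-fold change for all 22. Their half-widths ran from 0.16 for Ebp to 0.64 for Sqle on the log2 scale. The intervals hold for log2 values after an offset of 16 was added, which compresses differences at dim probes. For the dim probes of Mvd and Idi1 a larger fold change of the transcript could have been missed.

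**Figure D1:**
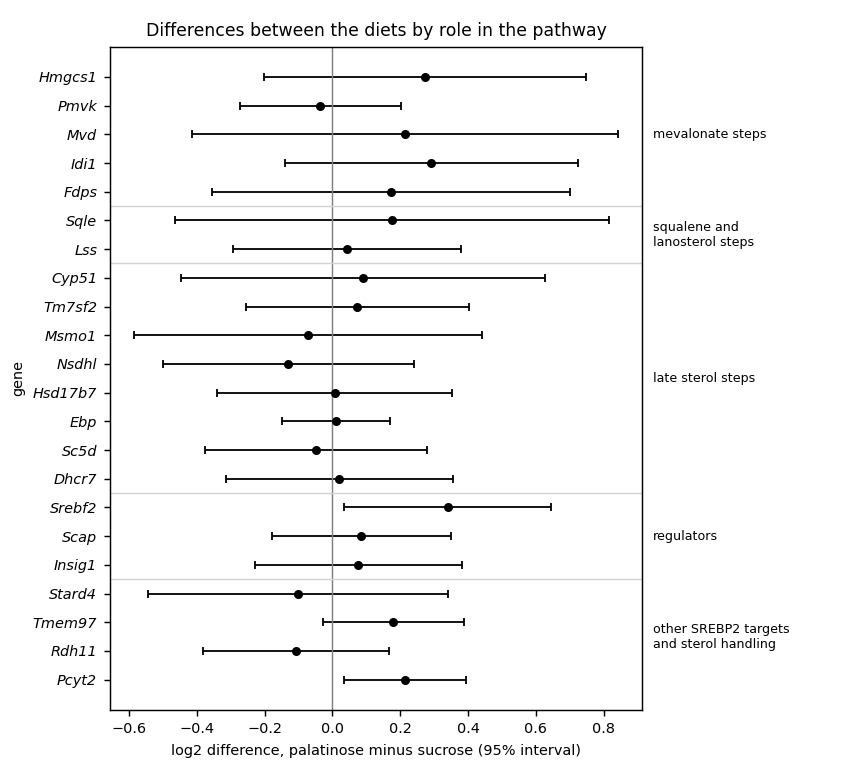
Log2 difference between the diets, palatinose minus sucrose, for the 22 measured genes in the order of their roles; points are limma estimates over 7 and 7 arrays and bars are 95% intervals. The intervals of Srebf2 and Pcyt2 lie above 0 before adjustment and the other 20 cross it.

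The 5 measured genes of the mevalonate steps were Hmgcs1, Pmvk, Mvd, Idi1 and Fdps, of which 4 were higher with palatinose and 0 passed. Hmgcs1, which makes the HMG-CoA that enters the pathway, had a log2 intensity of 11.90 at its lowest, 12.63 at the median and 12.89 at its highest in palatinose livers, against 11.47, 12.28 and 13.001 in sucrose livers. The sucrose livers spanned the whole palatinose range, with the highest and the lowest arrays of all both on sucrose. The means were 12.45 ± 0.39 with palatinose and 12.18 ± 0.56 with sucrose (SD, n = 7 each), a difference of 0.27 (95% interval -0.20 to 0.75, limma adjusted p = 0.7995). Without SUC_424_02, where Hmgcs1 was lowest, the difference was 0.15, and without SUC_408_02 it was 0.16.

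Idi1, the isomerase that interconverts the isoprenoid building blocks, had 4.93, 5.46 and 6.11 as lowest, median and highest log2 intensity with palatinose, against 4.61, 4.94 and 6.02 with sucrose. Its difference was 0.29 (-0.14 to 0.72), 0.18 without PAL_429_03 and 0.44 without SUC_421_03. Mvd, which decarboxylates mevalonate diphosphate, had 4.89, 5.97 and 6.64 with palatinose, against 4.92, 5.37 and 6.85 with sucrose. The Mvd difference was 0.21 (-0.41 to 0.84), 0.07 without PAL_417_02 and 0.43 without SUC_421_03. Both probes were dim, with deposited intensities of 14 to 85 in palatinose and 14 to 89 in sucrose livers for Mvd, and 15 to 52 against 8 to 44 for Idi1. At such signals the offset of 16 added before the log compresses the differences.

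Fdps, which joins isoprenoid units into farnesyl diphosphate, had 8.97, 10.12 and 10.47 as lowest, median and highest with palatinose, against 9.19, 9.90 and 10.50 with sucrose. Its means were 9.94 ± 0.57 with palatinose and 9.76 ± 0.50 with sucrose (SD, n = 7 each), a difference of 0.17 (-0.36 to 0.70). Without SUC_424_02 it was 0.08, and without PAL_430_01 it was 0.33. Pmvk, the kinase that makes mevalonate diphosphate, differed by -0.04 (-0.27 to 0.20).

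Of the squalene and lanosterol steps Sqle and Lss were measured, and both had differences above 0 that did not pass. Sqle, the epoxidase that is a later control point of the route, was measured in palatinose livers at 8.23, 8.77, 8.80, 8.69, 8.84, 6.99 and 6.95, the last 2 on PAL_430_01 and PAL_430_04. In sucrose livers it was measured at 7.48, 7.95, 7.83, 8.17, 8.70, 7.99 and 7.91. The palatinose livers thus formed a group of 5 at or above 8.23 and a pair below every sucrose liver. The Sqle means were 8.18 ± 0.85 with palatinose and 8.005 ± 0.37 with sucrose (SD, n = 7 each), a difference of 0.18 (-0.46 to 0.82). It was 0.07 without PAL_429_03 and 0.38 without PAL_430_04. The other probe of Sqle gave 0.13 and correlated with it at 0.90 over the 14 arrays. Lss, the cyclase that folds squalene epoxide into lanosterol, differed by 0.04 (-0.29 to 0.38).

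The late sterol steps, which trim and reduce lanosterol to cholesterol, were all measured, with the palatinose mean above the sucrose mean in 5 of 8 genes, below it in 3, and 0 passing. Cyp51, the demethylase of lanosterol, had 6.70, 8.11 and 8.47 as lowest, median and highest with palatinose, against 7.33, 7.78 and 8.39 with sucrose. Its difference was 0.09 (-0.45 to 0.63), -0.01 without PAL_429_03 and 0.29 without PAL_430_01. Msmo1, the oxidase of the methyl groups at the next steps, had 8.48, 9.72 and 9.94 with palatinose, against 8.70, 9.53 and 9.85 with sucrose, a difference of -0.07 (-0.58 to 0.44), which was -0.19 without SUC_408_02 and 0.07 without PAL_430_01. In both genes the palatinose median was the higher one while the lowest arrays were also on palatinose.

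Nsdhl, which removes the oxidised methyl groups, had the lowest difference of the 22, at -0.13 (-0.50 to 0.24), and its 3 other probes gave -0.21, -0.06 and 0.01. The Nsdhl difference was -0.01 without PAL_430_01 and -0.21 without SUC_408_02. Tm7sf2, a sterol reductase, differed by 0.07, Hsd17b7, the ketosterol reductase, by 0.01, and Ebp, the sterol isomerase, by 0.01. Sc5d, the desaturase of lathosterol, differed by -0.05, and Dhcr7, the reductase that completes cholesterol in one branch, by 0.02. The interval of Ebp was the narrowest of all, -0.15 to 0.17.

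**Figure D2:**
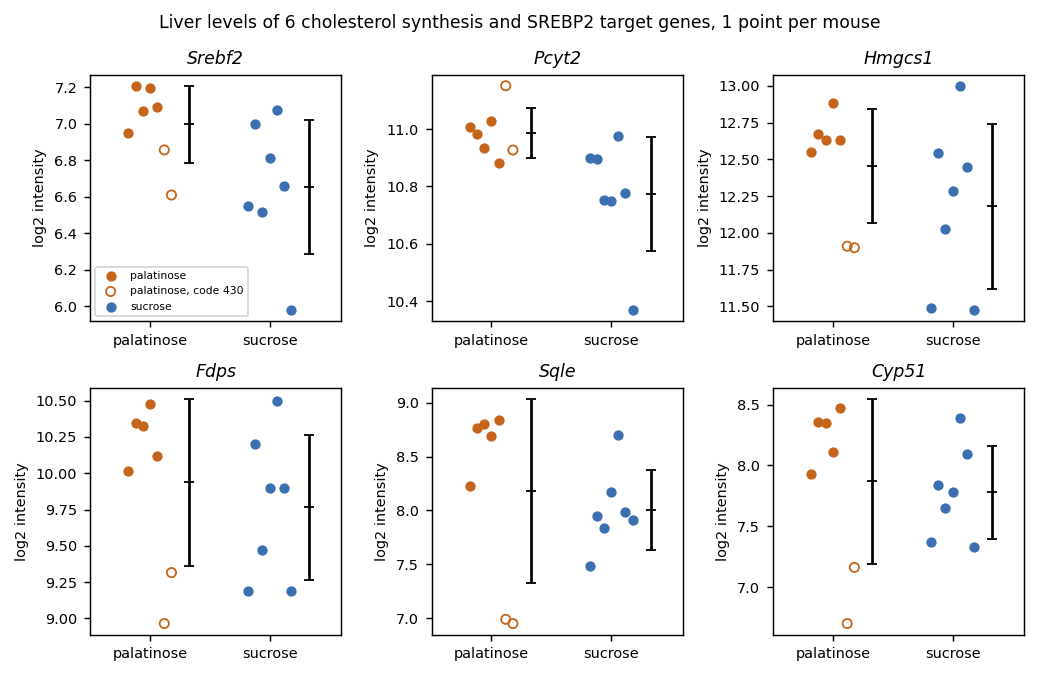
Log2 intensity of Srebf2, Pcyt2, Hmgcs1, Fdps, Sqle and Cyp51 in each liver, palatinose left and sucrose right; bars show the mean ± SD of 7 livers and open symbols are PAL_430_01 and PAL_430_04. The open symbols lie below the other 5 palatinose livers in every gene shown except Pcyt2.

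The 3 regulators were each higher with palatinose, and 0 of 3 passed. Srebf2, which encodes SREBP2 and is itself a target of it, was measured at 6.95, 7.20, 7.07, 7.20, 7.09, 6.86 and 6.61 in palatinose livers, against 6.55, 7.00, 6.52, 6.81, 7.07, 6.66 and 5.98 in sucrose livers. Of the 7 palatinose livers 6 lay above the sucrose mean, and the ranges overlapped. The Srebf2 means were 7.00 ± 0.21 with palatinose and 6.66 ± 0.37 with sucrose (SD, n = 7 each), a difference of 0.34 (0.04 to 0.65), with an adjusted p of 0.681 in limma. Without SUC_424_02, the lowest array, the difference was 0.23.

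Scap, the escort and sterol sensor, differed by 0.09 (-0.18 to 0.35), and by -0.03 without SUC_424_02. Insig1 holds Scap back when sterols are plentiful and is itself a target of SREBP2. Its difference was 0.08 (-0.23 to 0.38) on its brightest probe and -0.10 and -0.04 on its other kept probes. On the brightest probe it was 0.0038 without SUC_424_02 and 0.16 without PAL_430_04. Those probes correlated with the brightest one at 0.48 and 0.46 over the 14 arrays, so the probes of Insig1 did not move closely together.

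Among other SREBP2 targets, palatinose gave the higher mean in 2 of the 4 measured genes and the lower in 2, with 0 passing. Pcyt2, the enzyme that paces phosphatidylethanolamine synthesis from ethanolamine, was measured at 11.01, 10.98, 10.93, 11.03, 10.88, 11.15 and 10.93 in palatinose livers, against 10.90, 10.89, 10.75, 10.75, 10.98, 10.78 and 10.37 in sucrose livers. All 7 palatinose livers lay above the sucrose mean, and the ranges overlapped. The Pcyt2 means were 10.99 ± 0.09 with palatinose and 10.77 ± 0.20 with sucrose (SD, n = 7 each), a difference of 0.21 (0.03 to 0.39), with an adjusted p of 0.681 in limma. Its 2 other probes gave 0.14 and 0.11, and without SUC_424_02 the difference was 0.15.

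Tmem97, a sterol-responsive membrane protein that binds Npc1, had 9.45, 9.81 and 9.93 as lowest, median and highest with palatinose, against 9.37, 9.46 and 9.92 with sucrose, a difference of 0.18 (-0.03 to 0.39, limma adjusted p = 0.722). Rdh11, a retinol dehydrogenase, had 5.93, 6.53 and 6.69 with palatinose, against 6.20, 6.47 and 6.85 with sucrose, a difference of -0.11 (-0.38 to 0.17), and -0.03 without PAL_430_04. Stard4, which carries cholesterol through the cytosol, differed by -0.10 (-0.54 to 0.34), by -0.26 without SUC_424_02 and by 0.0023 without PAL_430_04. The 2 diets overlapped over most of the range in each of these genes.

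The mean over the 22 genes was 8.06 ± 0.34 in palatinose livers and 7.98 ± 0.23 in sucrose livers (SD, n = 7 each), on the log2 scale. It was 8.05, 8.33, 8.31, 8.33, 8.26, 7.57 and 7.60 in the palatinose livers, with PAL_430_01 and PAL_430_04 last, against 7.72, 8.09, 7.82, 8.02, 8.40, 8.04 and 7.78 in the sucrose livers. The highest mean was thus on a sucrose array, SUC_421_03, and the lowest 2 were on palatinose arrays. By role the difference of the means was 0.18 in the mevalonate steps, 0.11 in the squalene and lanosterol steps, -0.01 in the late sterol steps, 0.17 in the regulators and 0.05 in the other targets. No test was made of these means.

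The 2 palatinose arrays that share a code stood apart from the other 5 across the pathway. In 18 of the 22 genes both lay below all 5 other palatinose arrays, the exceptions being Dhcr7, Scap, Tmem97 and Pcyt2, and so it was in 10.4% of all 8829 features. The genes were counted after this pair had been seen to be low. The gap between the pair and the lowest of the other 5 was 1.24 for Sqle, 0.77 for Cyp51, 0.70 for Fdps, 0.66 for Hsd17b7 and 0.64 for Hmgcs1 on the log2 scale. At the other end it was 0.006 for Idi1, 0.08 for Tm7sf2, 0.09 for Pmvk and 0.09 for Srebf2. Of the 22 genes 13 had their lowest value of all 14 arrays on PAL_430_01 or PAL_430_04. The share of all features with their lowest value on this pair was not counted. Neither array held muscle markers (0 of 10), and their pancreatic signals were 198 and 202, the lowest of the 14. Their mean signals were 205 and 209.9, against 202 to 209 on the other palatinose arrays.

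The other marker lists were summed on the pair as well. The summed signal of cholangiocyte markers was 422 on PAL_430_01 and 379 on PAL_430_04, against 188 to 326 on the other 5 palatinose arrays. That of macrophage markers was 1736, the highest of the 14 arrays, and 962, against 554 to 1247. That of adipocyte markers was 419 and 602, the second the highest of the 14, against 136 to 425. Erythroid markers summed to 5496 and 8085, the second the highest of the 14, against 4208 to 7259, and hepatocyte markers to 80952 and 72800, against 70361 to 76345. Only the cholangiocyte list had both arrays above the other 5, and the part of these transcripts in the values of the pair was not tested.

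The pair was left out as a check chosen after its low values in these genes were seen. Leaving it out therefore raises most of the differences. Without the pair the 22 differences ran from 0.07 for Rdh11 to 0.66 for Sqle. Of the 22, 6 had an unadjusted p under 0.05 in limma, against 6.03% of all features (532 of 8829). The pair was not chosen by the values of all features, so that share is not a like comparison. The difference of the mean over the 22 genes was then 0.27, against 0.08 with all arrays. Without the 5 arrays with muscle or pancreatic markers it was 0.02. Srebf2 then differed by 0.37, Hmgcs1 by 0.29 and Pcyt2 by 0.28, while Sqle differed by -0.05, Cyp51 by -0.10 and Msmo1 by -0.27. Only 1 code is found on both diets: PAL_417_02 and PAL_417_03 had means of 8.33 and 8.31 over the 22 genes, against 8.02 on SUC_417_01. Of the other codes 9 hold 1 array each, so no other comparison within a code was possible. What the shared codes mean, and their part in these values, was not tested.

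**Figure D3:**
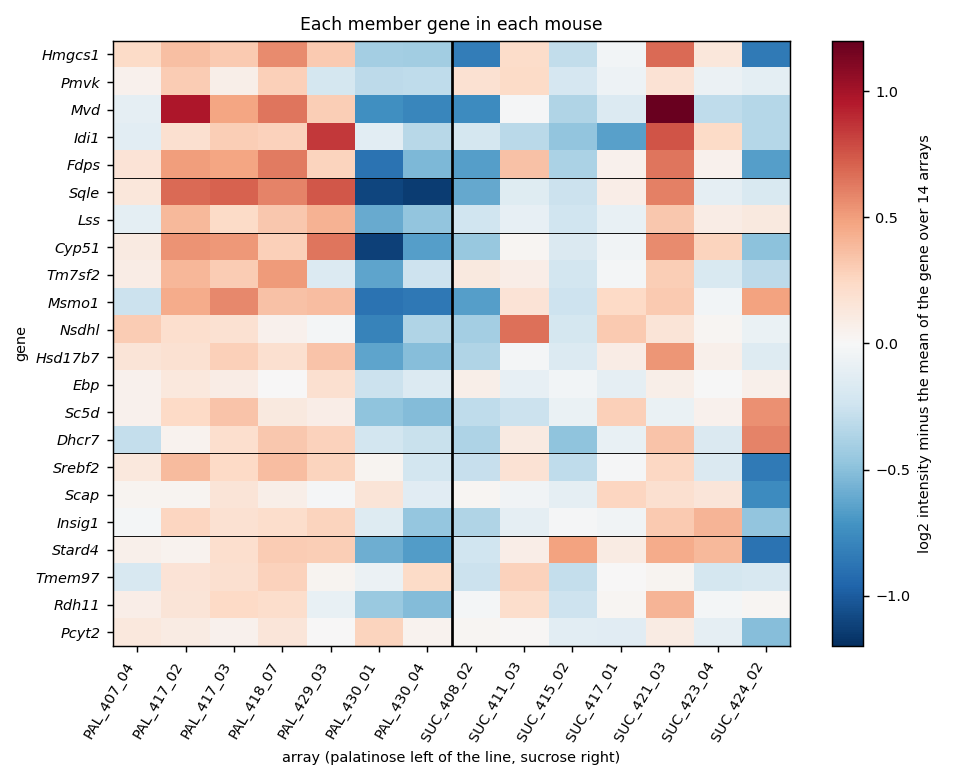
Log2 intensity of each of the 22 genes in each liver, minus the mean of that gene over the 14 arrays, with palatinose arrays left of the line and sucrose arrays right of it. Columns PAL_430_01 and PAL_430_04 are low through most of the synthesis genes and SUC_421_03 is high in most of them.

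Levels of these genes varied between mice on the same diet. The median SD over the 22 genes was 0.39 within palatinose and 0.35 within sucrose, against 0.16 and 0.19 over all features tested. The SD was larger with palatinose in 13 of the 22 genes (59.1%), against 40.1% of all features. The palatinose SDs include PAL_430_01 and PAL_430_04. Both lay below the other 5 palatinose arrays in 18 of the 22 genes, against 10.4% of all features. The SDs were not computed without this pair. After each diet was centred on its mean, the SD was largest in Sqle (0.66), Mvd (0.65), Cyp51 (0.55), Fdps (0.54), Msmo1 (0.52) and Hmgcs1 (0.48), all of them enzymes of the synthesis route. Among the sucrose livers SUC_421_03 was the highest in 13 of the 22 genes. The like share of all features was not counted.

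Genes of the pathway varied together from mouse to mouse. Hmgcs1 was correlated with each of the 21 other measured genes across the 14 arrays, and all 21 coefficients over these arrays were positive. Among the 7 sucrose livers alone 19 were positive and 2 negative, those of Ebp (-0.269) and Sc5d (-0.275), and on the 12 arrays without PAL_430_01 and PAL_430_04 Sc5d was negative (-0.059). With permutation tests of 100000 resamples, 14 of the 21 relations had an adjusted p under 0.05 by Pearson's r and 12 by Spearman's rho. The 14 ran from 0.568 to 0.943. The share of all features that were positive or passed against Hmgcs1 was not counted, here or in the checks below.

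Fdps followed Hmgcs1 most closely, with r = 0.943 and rho = 0.948 (n = 14, adjusted permutation p = 0.000210 for r, raw p = 1e-05, the smallest that the resamples can give). Without the 2 arrays farthest from the median of Hmgcs1, SUC_424_02 and SUC_408_02, r was 0.958. Among sucrose livers alone it was 0.981 (n = 7, exact permutation, adjusted p = 0.0104). Both genes stand early in the route, on either side of mevalonate.

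Srebf2 had r = 0.860 with Hmgcs1 and rho = 0.909 (adjusted permutation p = 0.000210 for r), 0.8001 without the 2 farthest arrays and 0.856 among sucrose livers. Insig1, on its brightest probe, had r = 0.850 and rho = 0.805 (adjusted permutation p = 0.000924 for r), 0.750 without the 2 farthest arrays and 0.841 among sucrose livers. Its other kept probes correlated with that one at 0.48 and 0.46 and were not tested singly against Hmgcs1. Mvd had 0.841, Cyp51 0.824, Hsd17b7 0.821, Sqle 0.768 and Stard4 0.748 by Pearson's r over the 14 arrays, all past the adjusted permutation test. So did Idi1 (0.654), Lss (0.653), Tm7sf2 (0.646), Rdh11 (0.630), Nsdhl (0.617) and Scap (0.568). That of Scap was 0.324 without the 2 farthest arrays and rests on them.

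The relations that did not pass were those of Msmo1 (r = 0.556, adjusted permutation p = 0.0532), Tmem97 (0.529), Pmvk (0.489), Pcyt2 (0.472), Ebp (0.334), Dhcr7 (0.330) and Sc5d (0.206). Some of them hung on a few arrays. That of Pcyt2 was 0.717 without PAL_430_01 and PAL_430_04, 0.613 among sucrose livers and 0.134 without the 2 farthest arrays. That of Tmem97 was 0.676 without the same pair and 0.318 without the 2 farthest arrays. Within sucrose alone, with 7 livers, 5 of the 21 passed, Fdps, Cyp51, Mvd, Hsd17b7 and Srebf2. No coefficient is given within palatinose, because its livers divide into 5 and 2. Without the pair PAL_430_01 and PAL_430_04 11 relations passed on 12 arrays, without SUC_421_03 8 passed, and without the 5 arrays with muscle or pancreatic markers 5 passed on 9 arrays.

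**Figure D4:**
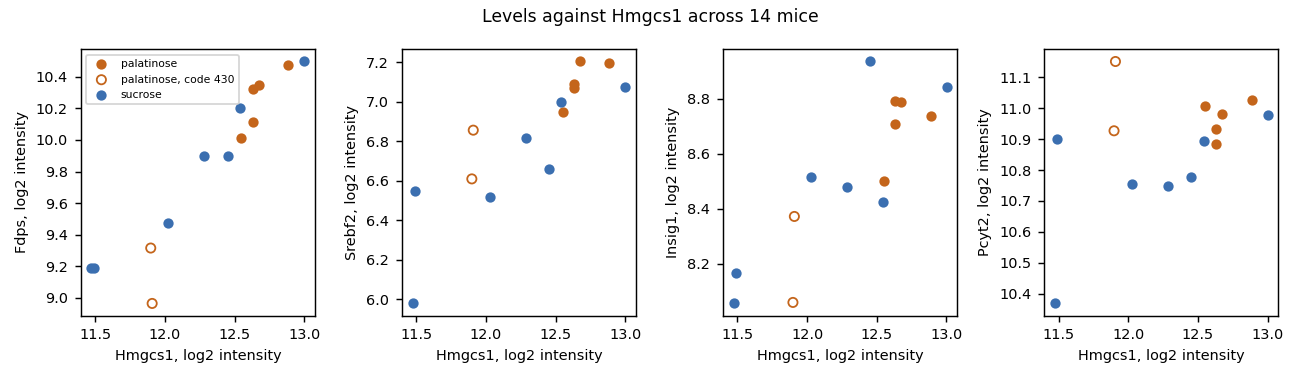
Log2 intensity of Fdps, Srebf2, Insig1 and Pcyt2 against that of Hmgcs1 in the 14 livers, palatinose in orange (open symbols for PAL_430_01 and PAL_430_04) and sucrose in blue. Fdps, with r = 0.943, runs along a line through both diets. Pcyt2, with r = 0.472, follows Hmgcs1 less closely over the 14 livers, and its r was 0.717 without the open symbols.

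All 231 pairs of the 22 genes were also correlated, with each diet centred on its mean, as a description with no test. The median coefficient was 0.578, against 0.002 over all pairs of features tested, and 16.5% of the pairs reached 0.8, against 0.448% of all pairs. Without PAL_430_01 and PAL_430_04 the median was 0.431. The points of every pair share the same arrays, so a liver that is high or low throughout moves all pairs at once.

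The closest pairs were Sqle with Hsd17b7 (0.961), Cyp51 with Hsd17b7 (0.953), Hmgcs1 with Fdps (0.948), Sqle with Lss (0.941) and Sqle with Cyp51 (0.938). Apart from Hmgcs1 and Fdps, these genes act from squalene onward. The most connected gene, by its median coefficient with the 21 others, was Fdps (0.772), followed by Cyp51 (0.756) and Rdh11 (0.740). The least connected were Pcyt2 (0.153), Scap (0.240) and Tmem97 (0.288), none of which encodes an enzyme of the route. The lowest coefficient was that of Sc5d with Pcyt2, at -0.646.

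**Figure D5:**
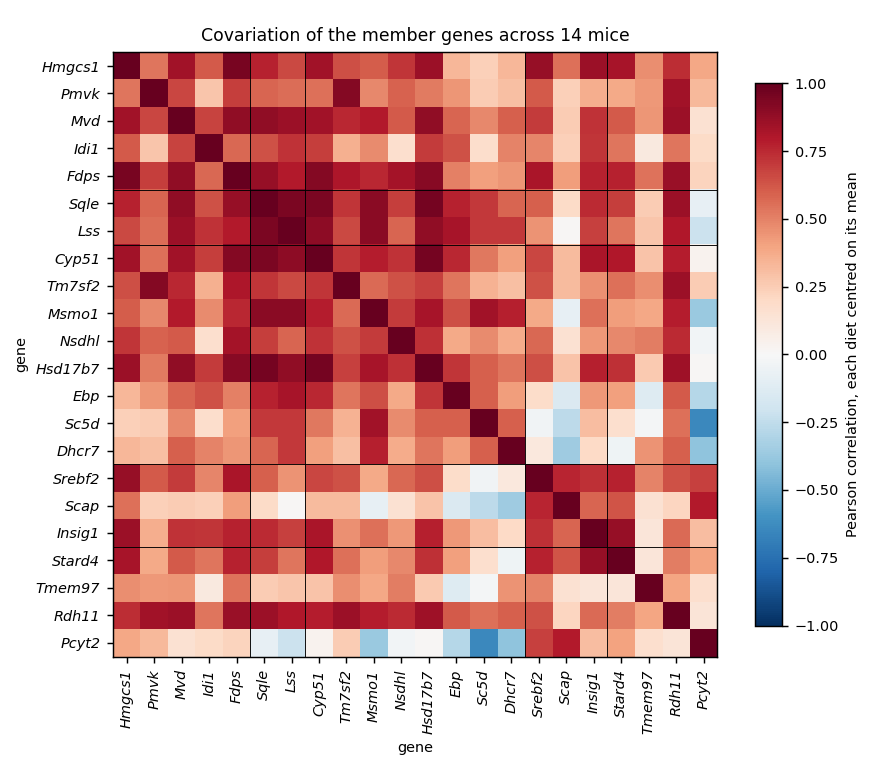
Pearson correlation between each pair of the 22 genes over 14 livers, each diet centred on its mean, in the order of their roles. The synthesis genes from Hmgcs1 to Hsd17b7 form a block of positive values, while Pcyt2 and Scap are near 0 or negative with several late sterol genes.

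A profile was made as the mean of the 15 measured synthesis genes, each centred within its diet and standardized. The 15 genes are part of it, so their likeness to it is a description. Sqle (0.974), Hsd17b7 (0.956), Lss (0.952) and Cyp51 (0.939) were closest to it. Rdh11, which was not used in the profile, correlated with it at 0.917, Insig1 at 0.719, Srebf2 at 0.627, Scap at 0.173 and Pcyt2 at -0.04. Of the 8829 features 12 reached 0.8, and 9 of these 12 were on the list of 28. Of those 9 only Rdh11 was not used in the profile, so the count is largely set by how the profile was made.

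The 10 features outside the list that were most like the profile over the 14 arrays were led by Slc27a1, a fatty acid transporter (0.855), Bloc1s3 (0.842), a subunit of a complex that forms lysosome-related organelles, and Tmem199 (0.804). They were followed by Elmo3 (0.798), the unnamed probes ILMN_2667709 (0.795), ILMN_1226326 (0.792) and ILMN_2756023 (0.790), the splicing factor Srsf2 (0.788), Cyp4a31 (0.788) and Tmem214 (0.785). Their differences between the diets ran from -0.14 to 0.13 on the log2 scale.

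Neighbouring pathways gave 45 tested genes of 60 listed, with the palatinose mean above that of sucrose in 23 and below it in 22. Over all features tested 54.8% were higher with palatinose. Of the 45 genes 0 passed and 5 had an unadjusted p under 0.05 in limma, against 0% and 7.1% of all features. Of 13 tested genes of SREBP1 and fatty acid synthesis, 5 were higher and 8 lower, with differences of -0.22 for Gpam, the first acyltransferase of glycerolipid synthesis, 0.18 for Acaca, acetyl-CoA carboxylase, and 0.18 for the desaturase Fads2. Of 8 genes of sterol sensing and SREBP processing, 6 were higher and 2 lower, with -0.16 for Erlin2, 0.18 for Nr1h3, the oxysterol receptor LXR alpha, and 0.12 for the ubiquitin ligase Rnf145. The difference of Nr1h3 was -0.03 as the mean of its kept probes.

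Of 9 genes of sterol disposal and export 3 were higher and 6 lower, with -0.29 for Abcg5, a subunit of the sterol exporter to bile, 0.12 for Scarb1, the HDL receptor, and -0.29 for Cyp7b1, an oxysterol hydroxylase. Of 7 genes of cholesterol trafficking 4 were higher and 3 lower, with 0.24 for the endosomal transporter Stard3, -0.10 for Scp2 and -0.07 for Osbpl2. Of 8 genes in other branches of the mevalonate pathway 5 were higher and 3 lower, with 0.19 for Dhdds and -0.12 for Dolk, which act in dolichol synthesis, and 0.11 for the farnesyltransferase subunit Fntb. None of these passed the adjusted test in limma.

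Hmgcs1 was also correlated with these 45 genes, a family of relations added after values had been seen. Of the 45, 21 were positive and 24 negative, 0 had an adjusted permutation p under 0.05 and 9 had an unadjusted one. The largest in size was that of Acly, which makes the cytosolic acetyl-CoA that both sterol and fatty acid synthesis use. It was negative, at r = -0.797 and rho = -0.637 (n = 14, permutation p = 0.0012, adjusted p = 0.0540), -0.651 without the 2 farthest arrays and -0.907 among sucrose livers. Rnf145 followed, at r = -0.636 (adjusted permutation p = 0.208), and Stard3 at 0.602. Over the same 14 arrays the 21 relations within the pathway were positive.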

How the data were processed

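RNA from 7 palatinose and 7 sucrose livers was hybridised to Illumina MouseRef-8 v2 beadchips after RNeasy extraction with DNase and TotalPrep labelling, per the labels' protocols. The deposited table holds, per the file headers, a non-normalized probe intensity and a detection p-value for each array. The authors' second table holds intensities normalized between arrays by a method not given in the sources used here, and served as an alternative. Arrays give no read counts, so precision rests on the number of arrays, the spread between mice and the signal of each probe.

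The 25697 probes (23978 with 1 gene symbol, 1719 unnamed here, 0 with several) were processed from the deposited intensities and detection p-values with the neqc function of limma 3.58.1 in R 4.3.3, which corrects background, adds an offset of 16, normalizes by quantiles and takes log2. Probes detected at a p-value under 0.05 on at least 7 of 14 arrays were kept, 11628 in all. A gene was represented by its kept probe with the highest mean, and 683 unnamed probes were tested singly, giving 8829 features. Of 33 probes of the listed genes 30 were kept, and 4 genes had several. Palatinose was compared with sucrose by lmFit and eBayes, two-sided, without covariates, and p-values were adjusted by Benjamini-Hochberg over all features. A gene passed at an adjusted p under 0.05. Differences are log2 palatinose minus sucrose with 95% intervals. The fit and the correlation test were tested on simulated data.

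The genes and lists were chosen with earlier results of these data known. All 28 are named. The 6 measured genes with the smallest p and the 6 with the largest diet-centred SD get the lowest, median and highest array, and up to 3 genes of each other list and the 10 features most like the synthesis profile are named. Correlations with Hmgcs1 have permutation p-values of 100000 resamples, exact within a diet (5040 orders), adjusted over 21 relations, or over 45 for the other lists. A tissue marker counted as present at a detection p-value under 0.01, and an array was set aside for muscle or pancreas at 3 markers or more. Alternatives were other background, scaling, filter, probe and eBayes settings, array weights, the authors' values, code and replicate blocks, and each array left out. Leaving out the arrays with other tissue, and those of PAL_430, was added after the data were seen.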

Additional observations from a re-analysis of the deposited data

Results flagged for a closer look

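Of 46 groups of 7 livers examined (22 genes and their mean, in each diet), 3 had 1 array far from the others, by the gap to its nearest neighbour as a share of the whole range. Chance alone flags about 1 group in 20 at this threshold. Mvd in sucrose livers had a gap of 0.617 of its range, with SUC_421_03 at 6.85 and the other 6 at 4.92 to 5.66. Scap in sucrose livers had a gap of 0.638, with SUC_424_02 at 7.44 and the others at 8.09 to 8.46. Pcyt2 in sucrose livers had a gap of 0.624, with SUC_424_02 at 10.37 and the others at 10.75 to 10.98. The difference of Pcyt2 between the diets was 0.15 without SUC_424_02, against 0.21 with it, that of Scap was -0.03, against 0.09, and that of Mvd was 0.43 without SUC_421_03, against 0.21. SUC_421_03 holds pancreatic transcripts (6 of 11 markers) and SUC_424_02 has the highest mean signal of the 14 arrays. Their part in these values was not tested.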

How the results depend on the processing

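The count of genes that passed stayed at 0 of 22 in all 27 alternatives run, with 1 to 6 at an unadjusted p under 0.05. Over all features the count was 1 with no background correction and 1 with no filter, and 0 otherwise, with 467 to 1084 at an unadjusted p under 0.05. The 1084 came with no filter, where more features were tested. The next highest count was 924, without the arrays with other tissue. Of 593 alternative values of the 22 differences 0 passed, the lowest adjusted p was 0.420, and 53, in 15 genes, had the opposite sign. Signs turned without PAL_430_01 and PAL_430_04 in Pmvk (0.082), Msmo1 (0.26), Nsdhl (0.077), Sc5d (0.14), Stard4 (0.13), Rdh11 (0.066), Cyp7b1 (0.089), Rnf145 (-0.014) and the correlation of Hmgcs1 with Sc5d (-0.0586). They turned without the arrays with other tissue in Sqle (-0.051), Lss (-0.051), Cyp51 (-0.10), Hsd17b7 (-0.11), Ebp (-0.057) and Dhcr7 (-0.042). With array weights Pmvk gave 0.029, Msmo1 0.14 and Sc5d 0.092, and Pmvk gave 0.0093 with the column code as a random block. Hsd17b7 gave -0.0069 with cyclic loess and -0.0068 with median scaling, and as the mean of kept probes Insig1 gave -0.021 and Nr1h3 -0.032. With 1 array left out, values ran from -0.089 to 0.015 in Pmvk, -0.022 to 0.15 in Lss, -0.010 to 0.29 in Cyp51, -0.0067 to 0.18 in Tm7sf2, -0.19 to 0.069 in Msmo1, -0.053 to 0.11 in Hsd17b7, -0.019 to 0.056 in Ebp, -0.11 to 0.040 in Sc5d, -0.059 to 0.12 in Dhcr7, -0.034 to 0.14 in Scap and -0.26 to 0.0023 in Stard4. The cause of these turns was not tested. The number of genes correlated with Hmgcs1 ran from 8 to 16 of 21 with 1 array left out, lowest without SUC_421_03, and was 5 without the arrays with other tissue, where 9 arrays remain. The sterol regulatory element was found in 0 of 18 genes when only the 100 bases nearest the start were searched, against 1 in the whole window. The median diet-centred coefficient was 0.431 without PAL_430_01 and PAL_430_04. With the replicate number as a block, on the authors' values, 0 of 22 genes passed and 636 features had an unadjusted p under 0.05. Livers of the same number did not deviate together (correlations of -0.225 to 0.163, and 1 of 7 numbers fit its own best), so the numbers were not taken to pair them. Dim probes, such as those of Mvd and Idi1, limit what a small difference can show.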

Other observations

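Transcripts that ran opposite to the synthesis profile were listed after values had been seen, as a description over the 14 arrays with each diet centred on its mean. The most opposite of the 8829 features were Hal, the histidine ammonia-lyase that opens histidine breakdown (-0.919), Cryl1 (-0.889), Bdh2 (-0.888), Plekhm1 (-0.874) and Angpt2 (-0.866). Their own differences between the diets, palatinose minus sucrose, were 0.05 for Hal, -0.20 for Cryl1, -0.10 for Bdh2, 0.03 for Plekhm1 and -0.01 for Angpt2 on the log2 scale. All of these coefficients share the same arrays, so PAL_430_01 and PAL_430_04, the lowest in the profile, and SUC_421_03, the highest, weigh on each of them.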
